A study of Mus musculus with 6 samples.

Results

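Prostanoids are signaling lipids made from arachidonic acid, and 10 genes of their synthesis, sensing and breakdown were followed in LSK cells, the Lin-Sca+Kit+ fraction of bone marrow that holds the hematopoietic stem cells and early multipotent progenitors. They are the receptor genes Ptgir, Ptger1, Ptger2, Ptger3 and Ptger4, the enzyme genes Ptgs1, Ptgs2, Ptges and Tbxas1, and Hpgd, whose enzyme inactivates prostaglandins. Ptgir was chosen because its read count was higher in OgaVav-Cre cells in these same libraries. Its own values are thus a description and no p-value is read from them. The other 9 were chosen by their role, with earlier results of these data known. Each of the 10 genes was sought by its symbol in the deposited table of reads per locus. Of these, 10 of 10 were found among 53445 loci, and 9 passed the filter on low counts, as did 22032 loci in all. Ptgs2, with 4 to 9 reads per library, did not pass, and the other 9 had at least 25 reads in every library of both genotypes. The question put to the data was whether the higher count of Ptgir was shared by other prostanoid genes, by the genes around it on chromosome 7, or by neither.

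RNA-Seq was performed on 6 libraries, 3 from OgaVav-Cre and 3 from wildtype mice, all female, on the C57BL/6 background and about 12 weeks old. OgaVav-Cre mice were bred from Oga fl/fl mice, in which the gene of O-GlcNAcase is flanked by loxP sites, and the Vav-iCre transgene, whose Vav promoter drives Cre recombinase in blood-forming cells. O-GlcNAcase removes the sugar O-GlcNAc from proteins. At least 20000 sorted cells of 1 mouse went into each library, the labels state no treatment and no batch, and whether the wildtype mice carried a floxed allele or the transgene is not given in the sources used here. Values of single libraries are given in the order of replicates 1, 2 and 3 of a genotype. The p-values below measure the spread between these 6 samples. In bulk RNA, fewer cells of a type and less RNA per cell cannot be told apart.

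The libraries held 19318056 to 27064389 counted reads, a depth at which 3 reads correspond to 0.109 to 0.156 CPM (read counts scaled to library size by the TMM method). Mgea5, the symbol under which the table lists Oga, had 104 to 110 reads in the OgaVav-Cre libraries and 2736 to 3164 in the wildtype libraries. All 10 LSK markers, among them Kit (6884 to 13705 reads) and Ly6a (1001 to 4926 reads), were detected. Markers of other cells were detected too, and the share of reads on Ighm, Igkc and Igj ranged from 1.17 to 9.88%. The summed CPM of each of the 7 marker lists overlapped between the genotypes.

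Prostanoid synthesis starts with the cyclooxygenases, encoded by Ptgs1 and Ptgs2, which turn arachidonic acid into an unstable intermediate from which terminal synthases make prostaglandin E2, prostacyclin, thromboxane A2 and others. Each product acts on its own G protein-coupled receptors. The prostacyclin receptor (Ptgir) and the prostaglandin E2 receptors EP2 (Ptger2) and EP4 (Ptger4) raise cyclic AMP through Gs, EP3 (Ptger3) mostly lowers it through Gi, and EP1 (Ptger1) acts mainly through calcium. Prostaglandin E2 is known as a regulator of hematopoietic stem cell number and homing.

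The Ptgir locus of the deposited table, at mm9 chr7:17491839-17496254 on the plus strand, has 2 exons. Its span is the same as that of the gene in the GENCODE annotation of this build, and no other locus of the table overlaps it. The promoter windows of Ptgir and of Ptger4 are shown because these receptors couple to the same G protein, and the libraries of the genotypes did not overlap for Ptgir but did for Ptger4. Both come from RefSeq (GRCm38.p6), run 5' to 3' on the strand of the gene from 250 bases before to 50 bases after its start, and cover chr7:16906240-16906539 on the plus strand and chr15:5244138-5244437 on the minus strand. Capitals mark GGGCGG, the Sp1 box, or its complement on the other strand.
Ptgir: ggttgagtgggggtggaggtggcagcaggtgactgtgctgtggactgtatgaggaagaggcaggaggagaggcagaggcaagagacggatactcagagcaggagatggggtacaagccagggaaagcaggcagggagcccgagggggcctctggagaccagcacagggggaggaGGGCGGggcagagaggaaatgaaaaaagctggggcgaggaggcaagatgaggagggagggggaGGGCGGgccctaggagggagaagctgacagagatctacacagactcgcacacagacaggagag
Ptger4: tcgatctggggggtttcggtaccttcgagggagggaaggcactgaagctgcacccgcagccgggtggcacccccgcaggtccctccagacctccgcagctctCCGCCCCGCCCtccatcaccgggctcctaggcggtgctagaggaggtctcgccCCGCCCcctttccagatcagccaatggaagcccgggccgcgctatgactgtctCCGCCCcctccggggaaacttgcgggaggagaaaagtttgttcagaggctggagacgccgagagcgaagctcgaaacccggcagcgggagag
Each window had 1 exact match on its chromosome in the mm9 sequence, at 17491589 to 17491888 of chromosome 7 and at 5194138 to 5194437 of chromosome 15, which puts the start used for the window on the first base of the deposited locus in both cases.

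The Ptgir window held 2 matches to GGGCGG and 6 CG dinucleotides, and that of Ptger4 held 4 matches and 25 CG dinucleotides. Windows were given for 9 of the 10 genes, all but Ptger1. GGGCGG, sought on both strands, was in 6 of these 9 windows (Ptgir, Ptger3, Ptger4, Ptgs2, Ptges and Hpgd) and in 35.7% of 32851 windows of all genes. TATAAA, the TATA box, was in 2 of the 9 (Tbxas1 and Hpgd) and in 13.6% of all. TGACGTCA, the full cyclic AMP response element, was in none of the 9 and in 1.79% of all. By their letters no match of 1 motif can overlap a match of another, and a match is a description of the sequence alone.

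Ptgir had 86, 139 and 157 reads in the OgaVav-Cre libraries and 27, 25 and 35 reads in the wildtype libraries. In CPM these were 3.81, 5.50 and 5.73 CPM against 1.27, 1.30 and 1.48 CPM. The lowest OgaVav-Cre library thus lay above the highest wildtype library, and the wildtype libraries lay close together. Mean levels were 5.01 ± 1.05 CPM (SD, n = 3) and 1.35 ± 0.116 CPM (SD, n = 3). The log2 fold change of OgaVav-Cre over wildtype, as edgeR fitted it, was 1.89 (standard error 0.289), a 3.71-fold difference. Leaving out single libraries moved it to between 1.79 and 2.05. The size depends on the scale, because Ptgir is a gene of few reads: it was 1.31 with the shrunken fold changes of DESeq2, and 1.57 and 0.74 on the log2 RPKM scale with 0.1 and 1 added.

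**Figure D1:**
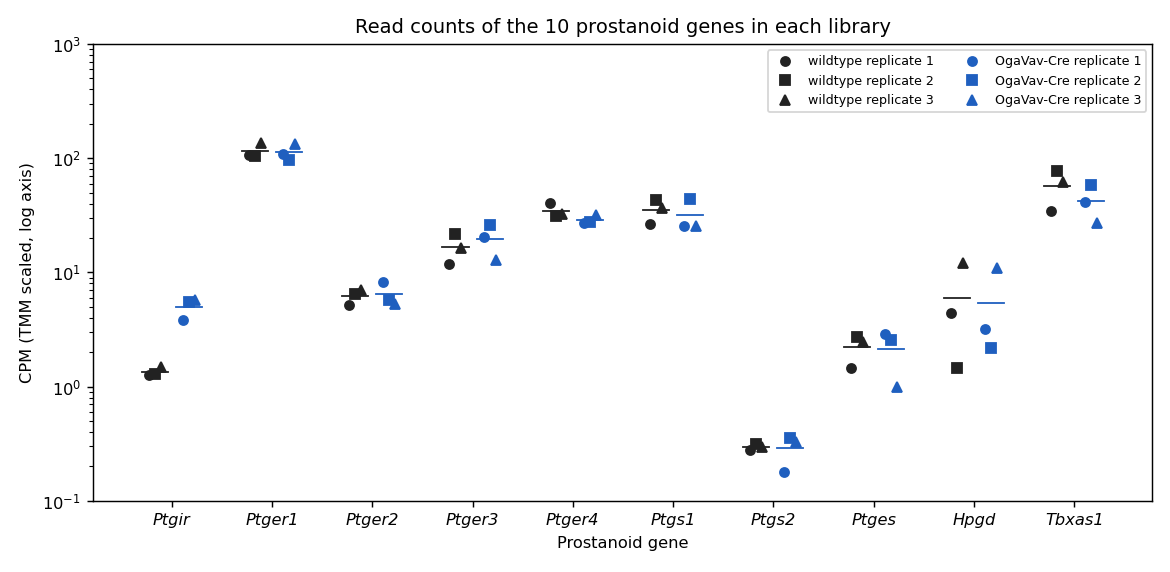
Level of each prostanoid gene in each library, in CPM (TMM scaled, logarithmic axis), with black symbols for wildtype, blue symbols for OgaVav-Cre and a horizontal line at the mean of each genotype. Of the 10 genes, Ptgir alone has all 3 OgaVav-Cre libraries (3.81 to 5.73 CPM) apart from the wildtype libraries (1.27 to 1.48 CPM). Ptgir was chosen for its higher count in these libraries.

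None of the other 9 genes showed such a separation. Loci counted as called where the adjusted p was below 0.05 and the log2 fold change was beyond 1 in either direction. By the quasi-likelihood test of edgeR, adjusted by Benjamini-Hochberg over all loci tested, 0 of the 9 genes tested were called, against 7 of 22032 loci (0.0318%). At an unadjusted p below 0.05 edgeR gave Ptgir and 0 of the other 8, where 10.6% of all loci passed. DESeq2's Wald test called Ptgir and none of the other 9, with 0.473% of its loci called, and limma-trend on RPKM called none of the 9. Ptgir entered through this contrast, so nothing is read from its part in these counts. The other 8 genes tested overlapped between the genotypes, whereas 7.5% of all loci had every OgaVav-Cre library above wildtype and 9.97% had every one below. Their median log2 fold change was -0.09, with 2 above 0 and 6 below, beside 0.0041 over all loci, and it was 0.07 without wildtype replicate 3.

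**Figure D2:**
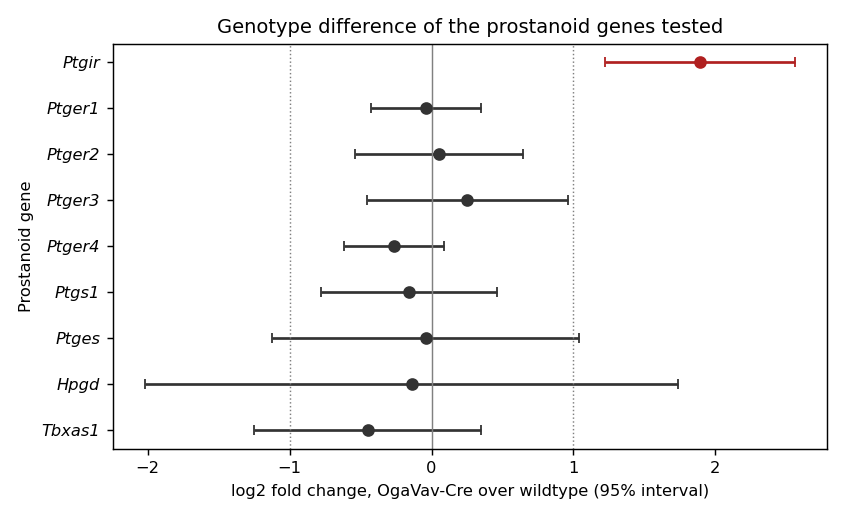
Fitted log2 fold change of OgaVav-Cre over wildtype for the 9 prostanoid genes tested, with 95% intervals from edgeR's fit and dotted lines at -1 and 1. Ptgir stands at 1.89, and the other 8 estimates lie between -0.45 and 0.25 with intervals that include 0.

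Ptger4 encodes EP4, a Gs-coupled receptor of prostaglandin E2. Its level was 27.2, 27.8 and 31.5 CPM in the OgaVav-Cre libraries and 40.6, 31.0 and 32.3 CPM in the wildtype libraries. Only OgaVav-Cre replicate 3 reached the range of the wildtype libraries. With a log2 fold change of -0.26 (SE 0.152, 95% interval -0.62 to 0.09, edgeR adjusted p = 0.555) it did not pass the test, and its estimate lay on the other side of 0 from that of Ptgir. The locus (mm9 chr15:5156661-5194187, minus strand) shares 1097 exon bases with annotation on the opposite strand, and the library kit named for these samples does not mark strand.

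EP2, the other Gs-coupled receptor of prostaglandin E2, is encoded by Ptger2 (mm9 chr14:45607786-45623495, plus strand). The OgaVav-Cre libraries had 8.25, 5.78 and 5.33 CPM and the wildtype libraries had 5.15, 6.48 and 7.02 CPM. The libraries were interleaved, and the estimate of 0.05 (SE 0.255, 95% interval -0.54 to 0.64, edgeR adjusted p = 0.956) changed sign with single libraries left out and on the RPKM scale. Ptgir, Ptger2 and Ptger4 are the Gs-coupled receptors among the 10 genes. Per length, as RPKM, Ptgir made up 16.8, 23.8 and 23.0% of the summed level of these 3 receptors in the OgaVav-Cre libraries. In the wildtype libraries it was 5.08, 6.19 and 6.69%. The mean share was 21.2 ± 3.83% (SD, n = 3) against 5.99 ± 0.824% (SD, n = 3), and since Ptgir itself was chosen for its difference, this share was not tested.

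Ptger3 (mm9 chr3:157229856-157307722, plus strand) encodes EP3, which signals mostly through Gi. It stood at 20.5, 25.9 and 12.7 CPM in the OgaVav-Cre libraries and at 11.9, 21.5 and 16.2 CPM in the wildtype libraries. Both genotypes covered about the same range, and the log2 fold change was 0.25 (SE 0.306, 95% interval -0.46 to 0.96, edgeR adjusted p = 0.777). Ptger1, the gene of EP1, had the highest level of the 10 genes. Its counts were 109.7, 96.0 and 132 CPM in the OgaVav-Cre libraries and 107, 104 and 136 CPM in the wildtype libraries. The genotypes overlapped closely (log2 fold change -0.04, SE 0.166, 95% interval -0.42 to 0.35, edgeR adjusted p = 0.947).

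The identity of the Ptger1 reads is uncertain. The locus used (mm9 chr8:86190539-86196652, plus strand) has 5152 bases, and 1408 of these (27.3%) are also annotated as exon on the minus strand. Without strand, reads of the 2 strands cannot be told apart there.

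The 4 prostanoid receptors outside the 10 genes gave 2 that could be tested. Tbxa2r, the thromboxane A2 receptor, had 390 to 720 reads and a log2 fold change of 0.05 (SE 0.166, edgeR adjusted p = 0.932). Ptgdr2, a prostaglandin D2 receptor listed as Gpr44, had 37 to 85 reads and 0.17 (SE 0.354, edgeR adjusted p = 0.881). Ptgdr and Ptgfr, the receptors of prostaglandins D2 and F2 alpha, had 0 to 4 reads in every library. Tbxa2r and Ptgdr2 overlapped between the genotypes. Over all loci, 7.5% had every OgaVav-Cre library above wildtype and 9.97% had every one below.

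Of the cyclooxygenases, Ptgs1 (mm9 chr2:36085946-36107792, plus strand), the constitutive form, was the one with a substantial level. It had 25.3, 44.0 and 25.4 CPM in the OgaVav-Cre libraries and 26.5, 42.8 and 36.3 CPM in the wildtype libraries. No shift between the genotypes was seen beyond this spread (log2 fold change -0.16, SE 0.268, 95% interval -0.78 to 0.47, edgeR adjusted p = 0.852). Ptgs2 (mm9 chr1:151947230-151955147, plus strand), the inducible form, had 4, 9 and 9 reads in the OgaVav-Cre libraries and 6, 6 and 7 reads in the wildtype libraries. These are 0.177 to 0.356 CPM, little above the 3-read floor, and no test was made of them. In RPKM the level of Ptgs1 was 84.7 to 156 times that of Ptgs2 within a library, with a median of 135.

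Ptges (mm9 chr2:30744991-30785383, minus strand) encodes the inducible synthase of prostaglandin E2. It was measured at 2.88, 2.57 and 0.985 CPM in the OgaVav-Cre libraries and at 1.45, 2.70 and 2.45 CPM in the wildtype libraries. OgaVav-Cre replicate 3 was the lowest library, and the log2 fold change was -0.04 with a wide interval (SE 0.466, 95% interval -1.12 to 1.04, edgeR adjusted p = 0.982). Without that library it was 0.31. The synthase of prostacyclin itself, Ptgis, which makes the ligand of the Ptgir receptor, had 0, 0 and 3 reads in the OgaVav-Cre libraries and 0 reads in every wildtype library. Its counts thus did not exceed the 3-read floor in any library.

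Tbxas1 (mm9 chr6:38825403-39034584, plus strand) encodes thromboxane A synthase. The OgaVav-Cre libraries had 41.6, 57.9 and 27.0 CPM, and the wildtype libraries had 34.5, 76.5 and 61.7 CPM. Its estimate of -0.45 was the farthest below 0 among the 10 genes, with the spread within each genotype larger than the difference between them (SE 0.345, 95% interval -1.25 to 0.35, edgeR adjusted p = 0.647). Leaving out single libraries moved it to between -0.75 and -0.19.

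Hpgd (mm9 chr8:58773334-58799843, plus strand) encodes 15-hydroxyprostaglandin dehydrogenase, the main enzyme of prostaglandin inactivation. Its counts were the most scattered of the 10 genes. They were 3.19, 2.18 and 10.9 CPM in the OgaVav-Cre libraries and 4.45, 1.45 and 12.0 CPM in the wildtype libraries. Replicate 3 of each genotype was high and the other libraries were low, which left the difference between genotypes very poorly determined (log2 fold change -0.14, SE 0.809, 95% interval -2.02 to 1.74, edgeR adjusted p = 0.963). The estimate was -1.16 without OgaVav-Cre replicate 3 and 0.87 without wildtype replicate 3. With the replicate number as a block it was -0.04 (SE 0.286), although the numbers were not taken to pair the libraries.

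The intervals set what these libraries could show. Those of Ptger1, Ptger2, Ptger3, Ptger4 and Ptgs1 lay within -1 and 1 on the log2 scale. Those of Ptges, Hpgd and Tbxas1 reached past -1, and those of Ptges and Hpgd also past 1. The highest upper limit among the 8 was the 1.74 of Hpgd.

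Marker sums of the libraries were set beside these genes. With only 3 libraries in a genotype, orders can match by accident, and of 63 pairs of 9 genes and 7 marker sums 6 had the same order of libraries within both genotypes. Hpgd and Ptger1 each matched the sum of 10 B and T cell markers and that of 8 endothelium and stroma markers. The lineage antibodies of the sort are meant to remove mature B and T cells. Their marker sum was 245, 202 and 956 in the OgaVav-Cre libraries and 425, 164 and 608 in the wildtype libraries. The sum over 10 LSK markers was 2148, 2459 and 1153 in OgaVav-Cre and 1521, 2695 and 1954 in the wildtype libraries. Tbxas1 and Ptger3 matched the order of this sum in both genotypes, and Ptgs1 and Ptges matched it in wildtype only. The part of cell makeup in these genes was not tested.

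**Figure D3:**
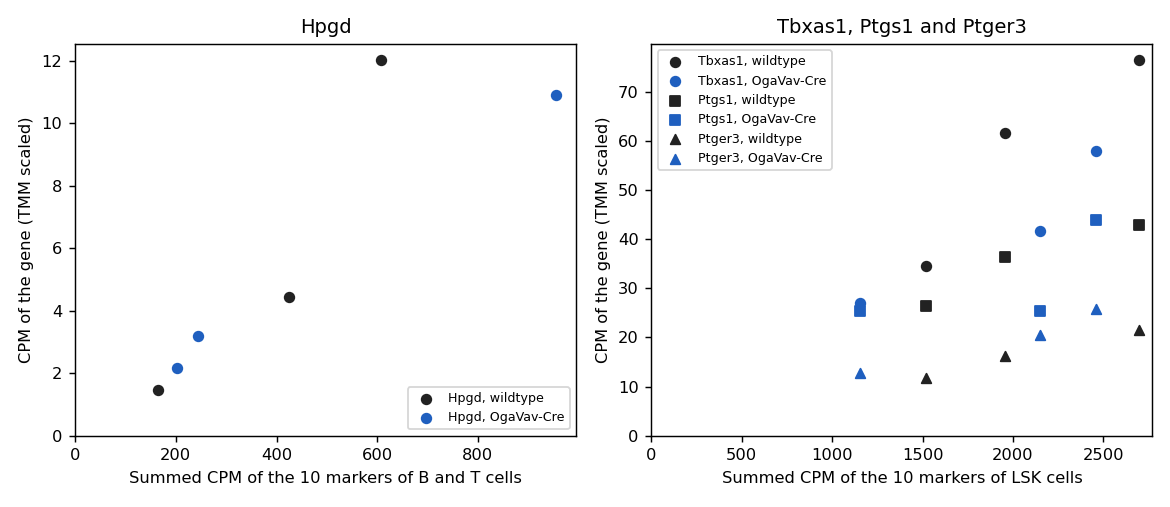
Level in CPM of Hpgd against the summed CPM of 10 B and T cell markers (left), and of Tbxas1, Ptgs1 and Ptger3 against the summed CPM of 10 LSK markers (right), 1 point per library, black for wildtype and blue for OgaVav-Cre. The highest points of Hpgd, at 10.9 and 12.0 CPM, belong to the libraries with marker sums of 956 and 608.

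Platelets are known to carry prostacyclin receptors, and the 10 markers of megakaryocytes and platelets summed to 56.4, 89.1 and 101 CPM in the OgaVav-Cre and 65.9, 88.0 and 78.6 CPM in the wildtype libraries. This sum overlapped between the genotypes, while 7 of its 9 tested markers had a log2 fold change above 0, with a median of 0.41. Gp5, a platelet glycoprotein gene, was the 1 of its 9 tested markers whose genotypes did not overlap. It had 149, 240 and 222 reads against 122, 69 and 110 (log2 fold change 0.79, edgeR adjusted p = 0.412). Over all loci, 7.5% had every OgaVav-Cre library above wildtype. For endothelium and stroma the sum was 174 to 222 CPM against 160 to 187 CPM, and none of its 8 markers separated the genotypes, with 6 log2 fold changes above 0 and a median of 0.48. The 8 plasma cell markers were all above 0 with a median of 0.68, and none separated the genotypes. The 5 tested markers of mast cells and basophils were all below 0 with a median of -0.77, and none separated the genotypes. Of the 10 B and T cell markers 8 were above 0 and 2 below, with a median of 0.50. The 10 LSK markers had 4 above 0 and 6 below, with a median of -0.22. All endothelium and stroma markers were detected, Cxcl12 with 453 to 1650 reads among them (log2 fold change 0.84, edgeR adjusted p = 0.412). The part of such cells in the Ptgir count was not tested.

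Per length, the order of the 10 genes in wildtype cells was led by Ptger1 (20.1 RPKM). It was followed by Ptgs1 (8.04), Tbxas1 (5.59), Ptger4 (4.65), Ptger3 (3.29), Hpgd (1.92), Ptger2 (1.05), Ptges (0.498), Ptgir (0.361) and Ptgs2 (0.0619 RPKM). In wildtype libraries the neighbours in this order overlapped in range, except Ptger1 with Ptgs1, Ptger2 with Ptges and Ptgir with Ptgs2. In OgaVav-Cre cells Ptgir, at 1.29 ± 0.327 RPKM (SD, n = 3) against 0.361 ± 0.0387 RPKM (SD, n = 3), stood at place 7 in place of 9. It then overlapped in range with Ptger2 (1.03 RPKM) and lay above Ptges (0.458 RPKM). In both genotypes Ptgir lay below Ptger1, Ptger3 and Ptger4 in every library.

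The pathway around the 10 genes was described with 6 lists of 80 further genes, of which 71 could be tested. By edgeR 0 of them were called, and DESeq2 and limma-trend called 0 as well. At an unadjusted p below 0.05 edgeR gave 3 higher and 2 lower in OgaVav-Cre, while 4.38% of all loci were higher and 6.27% lower at that level. The genotypes did not overlap in 10 genes that were higher and 2 that were lower, beside 7.5% and 9.97% of all loci. The median log2 fold change of the 71 was 0.05, with 42 above 0 and 29 below.

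Of 12 further genes of prostanoid synthesis, transport and breakdown, 11 were tested, with 7 log2 fold changes above 0, 4 below and a median of 0.17. Hpgds, the prostaglandin D2 synthase of blood cells, was the only one whose genotypes did not overlap. It had 207, 296 and 334 reads in the OgaVav-Cre libraries and 79, 153 and 195 reads in the wildtype libraries (log2 fold change 0.73, SE 0.319, edgeR adjusted p = 0.474). Over all loci, 7.5% had every OgaVav-Cre library above wildtype. The prostaglandin transporter gene Slco2a1 (-0.70, SE 0.453, edgeR adjusted p = 0.589) and Ptges3 (0.22, SE 0.157, edgeR adjusted p = 0.623), which encodes the cytosolic prostaglandin E synthase also known as the co-chaperone p23, overlapped between the genotypes.

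Of 8 genes that release arachidonic acid from membrane lipids, 6 were tested and had a median of 0.15. Pla2g4b, a cytosolic phospholipase A2 gene, had 138, 116 and 159 reads in the OgaVav-Cre libraries against 183, 154 and 235 in the wildtype libraries, a log2 fold change of -0.68 (SE 0.214, edgeR adjusted p = 0.412). Mgll, the gene of monoacylglycerol lipase, differed in the other direction with overlapping libraries (0.85, SE 0.366, edgeR adjusted p = 0.468). Pla2g4a, the best known supplier of arachidonic acid, stood at 0.46 (SE 0.282, edgeR adjusted p = 0.577).

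The leukotriene branch, which uses the same arachidonic acid, had 10 of 10 genes tested, 8 with a log2 fold change above 0 and 2 below, and a median of 0.34. Lta4h, whose enzyme makes leukotriene B4, had 1640, 1646 and 2762 reads in the OgaVav-Cre libraries and 1347, 920 and 1155 reads in the wildtype libraries (log2 fold change 0.58, SE 0.194, edgeR adjusted p = 0.416). Ltc4s, the leukotriene C4 synthase gene (0.81, SE 0.359, edgeR adjusted p = 0.482), and Cysltr1, a receptor of cysteinyl leukotrienes (0.67, SE 0.292, edgeR adjusted p = 0.472), were also higher in every OgaVav-Cre library. Of the 10 genes, 3 had every OgaVav-Cre library above wildtype and 0 had every one below, beside 7.5% and 9.97% of all loci. None of the 10 passed the adjusted threshold.

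Downstream of Gs, 30 of 32 genes of cyclic AMP signaling were tested, with a median of 0.02. The genotypes did not overlap in 5 higher genes and 1 lower gene of the 30, beside 7.5% and 9.97% of all loci. The lower one was Pde4c, a cyclic AMP phosphodiesterase gene with 29, 49 and 37 reads against 46, 87 and 64 (log2 fold change -1.03, SE 0.381, edgeR adjusted p = 0.439). The adenylyl cyclase genes Adcy3 (0.32, SE 0.149, edgeR adjusted p = 0.492) and Adcy4 (-1.41, SE 0.694, edgeR adjusted p = 0.508, with 2 to 23 reads) lay on opposite sides of 0. Of 16 genes known to respond to cyclic AMP 14 were tested, 6 above 0 and 8 below, with a median of -0.05. Ccnd1, the cyclin D1 gene, had 1337, 1809 and 2109 reads in the OgaVav-Cre libraries against 1085, 445 and 953 in the wildtype libraries (0.86, SE 0.269, edgeR adjusted p = 0.412). The immediate early gene Nr4a3 (-1.03, SE 0.763, edgeR adjusted p = 0.636) and the kinase gene Sik1 (0.40, SE 0.388, edgeR adjusted p = 0.720) overlapped between the genotypes.

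**Figure D4:**
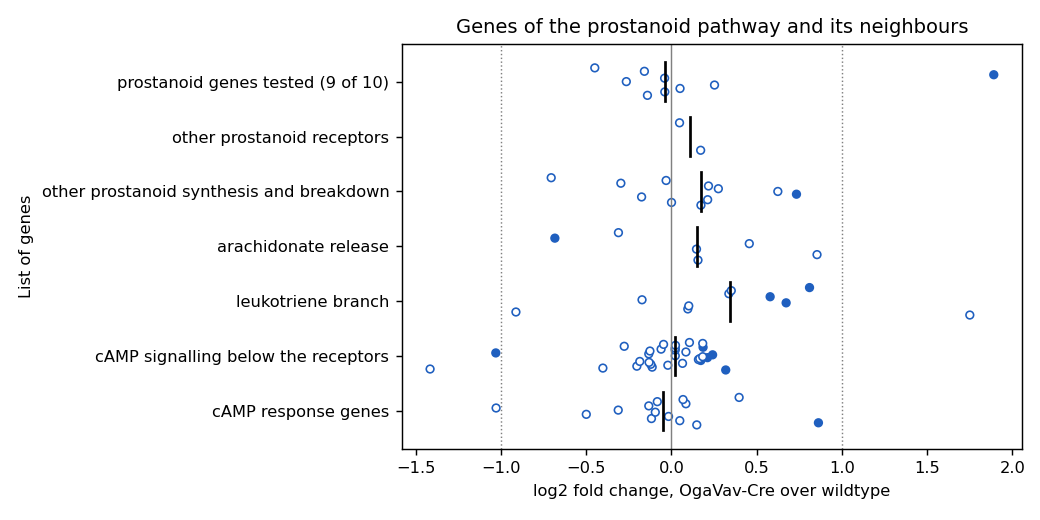
Log2 fold change of OgaVav-Cre over wildtype (edgeR) for the 9 prostanoid genes tested and for each tested gene of the 6 pathway lists, 1 circle per gene, filled where the libraries of the genotypes do not overlap, with a black bar at the median of each list. Ptgir, chosen for its higher count, is at 1.89 the only filled circle above 1, and the list medians lie between -0.05 and 0.34.

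The chromosomal surroundings of Ptgir were then examined. Slc1a5, the gene of a glutamine transporter, ends 108.216 kb before the start of Ptgir on the same strand. It had 2162, 3004 and 2481 reads in the OgaVav-Cre libraries and 662, 569 and 943 reads in the wildtype libraries (log2 fold change 1.60, SE 0.167, edgeR adjusted p = 0.0466). Its fold change stayed between 1.42 and 1.75 under 15 alternatives, but its call held in only 5 of them. Both forms of DESeq2, whose Wald test the paper used, kept it (adjusted p = 7.9e-13 and 6.0e-13). The call was lost without OgaVav-Cre replicate 1 (edgeR adjusted p = 0.227) or 2 (0.177). This adjusted p was 0.185, 0.122 and 0.112 without wildtype replicate 1, 2 or 3, and 0.116 with the replicate block. With at least 10 reads in every library it was 0.0564, and with the immunoglobulin share as a covariate 0.0607. On RPKM limma-trend gave adjusted p = 0.106 and 0.116 with 0.1 and 1 added. The paper also reports higher Slc1a5 by qRT-PCR on cDNA of these libraries. From the start of Slc1a5 to 100 kb beyond Ptgir the table lists 19 loci besides Ptgir, Slc1a5 among them, of which 13 were tested. One of these, LOC100503076, lies inside Slc1a5 (205, 346 and 248 reads against 62, 38 and 100, log2 fold change 1.80). It is on the opposite strand, and without strand its reads may include reads of Slc1a5.

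The 11 tested loci outside Slc1a5 did not follow Ptgir. Of these 6 had a log2 fold change above 0 and 5 below, with a median of 0.07 and a range from -2.13 to 0.61. Strn4 (0.07), Prkd2 (-0.04) and Dact3 (0.10), which lie between Slc1a5 and Ptgir, overlapped between the genotypes. So did Calm3 (0.25), a calmodulin gene beyond Ptgir on the minus strand. Calm3 covers 17500728 to 17509463 of chromosome 7, and its start, at the far end, lies 17.624 kb from the start of Ptgir. Gng8, the gene next to Ptgir on the side of Slc1a5, had 0 reads in all 6 libraries, which allows up to 0.109 to 0.156 CPM. Pnmal2, 38.192 kb from the start of Ptgir, was the only locus outside Slc1a5 whose genotypes did not overlap. It was lower in OgaVav-Cre (13, 2 and 28 reads against 30, 56 and 74, log2 fold change -2.13, SE 0.732, edgeR adjusted p = 0.423). Over all loci, 9.97% had every OgaVav-Cre library below wildtype.

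**Figure D5:**
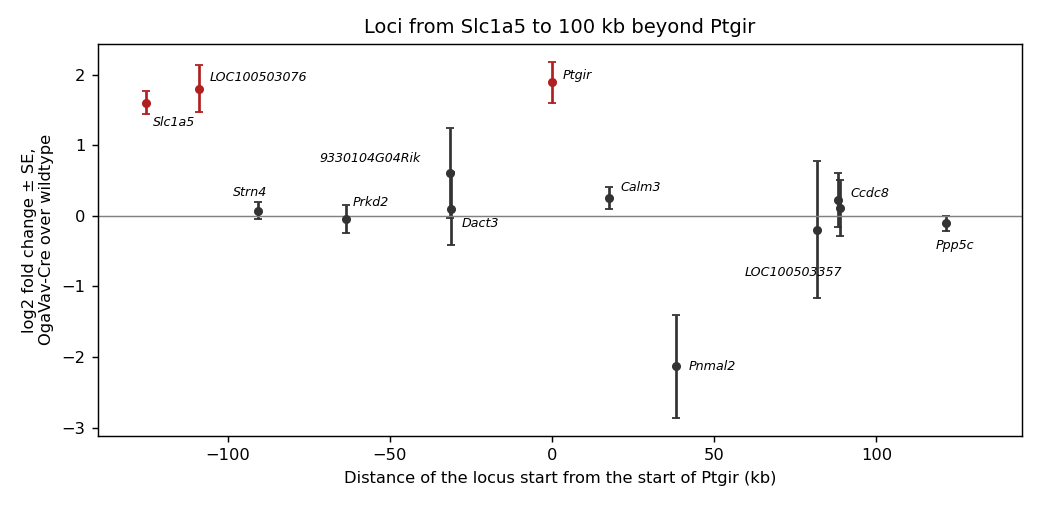
Log2 fold change of OgaVav-Cre over wildtype with its standard error (edgeR) for tested loci from Slc1a5 to 100 kb beyond Ptgir, against the distance of the locus start from the start of Ptgir in kb. Slc1a5 (1.60), LOC100503076 inside it (1.80) and Ptgir (1.89), in red, stand above the plotted loci between them, which lie between -0.04 and 0.61.

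Across the 6 libraries the loci most like Ptgir were sought by Pearson's r of log2(CPM + 0.5) among 18993 loci with a mean of at least 1 CPM. Among the 5 highest were Gm6293 (0.980), Tor3a (0.980), Syf2 (0.973) and E130311K13Rik (0.971). Slc1a5 was at rank 7 with 0.969. The other prostanoid genes ranged from -0.635 (Ptger4) to 0.245 (Ptger3). With 6 points that fall into 2 genotypes and share their library depth, these values are a description only. The fold between the genotypes was 1.59 for Gm6293, 1.21 for Tor3a, 1.19 for Syf2 and 1.42 for E130311K13Rik, and 3.71 for Ptgir.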

How the data were processed

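Poly(A) RNA-Seq libraries of sorted LSK cells from 3 OgaVav-Cre and 3 wildtype mice were analyzed, with genotype and replicate number taken from the labels. Per the methods, the authors used single-end sequencing with a read length of 50 bp, mm9 as the genome and Genomatix for the sums per locus, and the submitters' processing notes name CASAVA 1.8.2. The aligner, its version, the annotation version and any use of strand in counting are not given in the sources used here. The deposited values used are of 2 kinds, raw counts of reads per locus and the RPKM that the authors made from them by locus length and library size. The 6 columns of Genomatix normalized expression and the authors' own fold changes and p-values are in the table and were not used.

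Counts were fitted in R 4.3.3 with edgeR 4.0.16 (TMM, filterByExpr by genotype, glmQLFit and glmQLFTest) over all loci, with p-values adjusted over the 22032 loci that passed the filter and no covariate besides genotype. Intervals of fold changes are 95% intervals from that fit. CPM are counts scaled to library size after TMM. Levels of different genes were compared in RPKM only. Where 1 symbol had several loci, the longest was taken. A floor of 3 reads was used, which covers counting error only. With 3 libraries against 3, an exact permutation test cannot go below p = 0.1, so none was used. The fit was also run on simulated counts, with changes set larger than those estimated for the prostanoid genes besides Ptgir. That run gives no measure for smaller changes.

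The alternatives were RLE size factors, no filter, a minimum of 10 reads in all libraries, DESeq2 1.42.0 with unshrunken and shrunken fold changes, limma 3.58.1 (trend) on log2 RPKM with 0.1 or 1 added, the replicate number as a block, the share of reads on Ighm, Igkc and Igj as a covariate, and each library left out in turn. Python 3.11.15, pandas 2.3.3, numpy 2.4.6 and matplotlib 3.10.9 made the tables and plots. Promoter windows came from RefSeq (GRCm38.p6).

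The 10 genes, the 6 pathway lists, the 7 marker lists and the tests were chosen with earlier results of these data known. The genes named are the 10, Mgea5, Kit, Ly6a, Slc1a5, the loci around Ptgir, up to 3 genes with the smallest p of each list, and the 5 loci most like Ptgir, and some of these are not reported here. Ptgdr, Ptgfr, Ptgis and the neighbours given by value beyond Pnmal2 and 9330104G04Rik were named after their values were seen.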

Additional observations from a re-analysis of the deposited data

How the results depend on the processing

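The count of loci past both thresholds depended on the settings. It was 7 with edgeR, 21 with no filter, 4 with at least 10 reads in every library, 117 with DESeq2's Wald test, 66 with its shrunken fold changes, and 4 with RPKM and 1 added. With each library left out in turn it ranged from 3 (without OgaVav-Cre replicate 1, and likewise without replicate 2) to 9 (without OgaVav-Cre replicate 3), and it was 4 without wildtype replicate 1 and without wildtype replicate 3. Among the prostanoid genes the count was 0 in edgeR and became 1, Ptgir, under both forms of DESeq2. Without Ptgir it was 0 under all 15 alternatives, and none of the other genes, of which 8 or 9 could be fitted, reached an unadjusted p below 0.05 in any of the 15, the smallest being 0.0586 without wildtype replicate 1 in edgeR. Ptgir, Ptger3, Ptger4 and Tbxas1 kept their sign under all 15. Of the estimates that changed sign, Ptger1 was 0.0297 with the immunoglobulin share as a covariate, Ptger2 was -0.0279 and -0.0150 on RPKM with 0.1 and 1 added and -0.11 with the covariate, and Hpgd was 0.45 with the covariate. With each library left out in turn Ptger1 ranged from -0.17 to 0.0934, Ptger2 from -0.16 to 0.17, Ptgs1 from -0.47 to 0.0087, Ptges from -0.31 to 0.31 and Hpgd from -1.16 to 0.87. The cause of these changes was not tested. Libraries with the same replicate number correlated in their deviations at -0.089, 0.309 and 0.382 for numbers 1, 2 and 3, and OgaVav-Cre replicate 1 correlated best with wildtype replicate 2 (0.258), so the numbers were not taken to pair the libraries. With the replicate block 6 loci and 0 prostanoid genes were called, and the log2 fold change of Ptgir was 1.87. Depth limits Ptgs2 (4 to 9 reads per library), and Ptgir, Ptges and Hpgd had as few as 25, 27 and 28 reads in a library.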

Other observations

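Inside Slc1a5, on the side away from Ptgir, the table lists a further short locus, 9530015I06Rik, that failed the filter on low counts. It had 21, 12 and 10 reads in the OgaVav-Cre libraries and 3, 2 and 4 reads in the wildtype libraries. Since it lies within the span of Slc1a5 on the same strand, these reads may include reads of Slc1a5. Among genes of the cell type marker lists, Cd4 had 469, 347 and 1993 reads in the OgaVav-Cre libraries and 375, 206 and 287 reads in the wildtype libraries. These overlapped between the genotypes (log2 fold change 1.41, SE 0.582, edgeR adjusted p = 0.460). Its list of 10 B and T cell markers had 8 log2 fold changes above 0 and 2 below, with a median of 0.50. OgaVav-Cre replicate 3, with the most Cd4 reads, was also the library with the fewest Ptges reads (27) and the most Hpgd reads (299). The monocyte receptor gene Ccr2 had 3365, 586 and 3009 reads in the OgaVav-Cre libraries and 7293, 2518 and 5060 reads in the wildtype libraries. The libraries of the genotypes overlapped for Ccr2. Its list of 12 markers of monocytes, macrophages and neutrophils had 6 log2 fold changes above 0 and 6 below. The median of that list was 0.0006.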
